A study of Mus musculus with 9 samples.

Results

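The interferon response genes are a set of 32 mouse genes that cells switch on after interferon, followed here through the resting hair follicle. They were chosen by name, with earlier results of these data known. On the array 28 of the 32 had a probe set annotated to that gene alone, and the brightest probe set stood for the gene. Of those, 19 passed a filter on low signals and were tested among 7796 genes, out of 12393 genes named on the array. The filter asked that a probe set exceed the median signal of the array in 3 or more of the 9 arrays. None of the 19 had above-median arrays in a single population only: 12 had such an array in all 3 populations and 7 in 2 of them. Without their hair germ arrays, Cxcl10, Mx1, Irf7, Oasl2, Irgm1 and Gbp2 would have stayed below 3 such arrays. For these genes the filter was thus not independent of the hair germ level. The 9 genes below the filter were Rsad2, Ifit1, Ifit2, Ifit3, Stat2, Gbp3, Bst2, Dhx58 and Zbp1. Isg15 and Tgtp1 had only probe sets shared with another gene, and Ifi44 and Xaf1 were named by no probe set, so these 4 have no values here.

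The arrays compare cell populations of the mouse back skin hair follicle during telogen, the resting phase before regrowth. All samples came from virgin CD1 females with the genotype Lef1RFP/K14H2BGFP, in which Lef1 drives a red reporter and keratin 14 a green histone, and which were on postnatal day 43 (early telogen), 56 (middle) or 69 (late). Bulge cells, the stem cell reservoir, were sorted as RFP-, GFP+, CD34+ and P-cadherin low, and hair germ cells, the small cluster between bulge and dermal papilla from which regrowth starts, as RFP-, GFP+, CD34- and P-cadherin high. Dermal papilla cells, the mesenchyme beneath the germ, were RFP+ and GFP- after removal of CD45, CD117 and integrin alpha 7 positive cells, and of CD34 positive cells as the titles have it. There was 1 array for each population and day, 9 in all. Neither the number of mice behind an array nor a link between the arrays of 1 day is stated.

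Interferons are secreted proteins that warn cells of infection. Type I interferons act through the Ifnar receptor and interferon gamma through the Ifngr receptor, and their target genes carry interferon-stimulated response elements, gamma-activated sequences or both. The induced genes encode antiviral effectors, GTPases that attack intracellular microbes, chemokines, sensors of foreign nucleic acid and the machinery that loads peptides onto MHC class I. Parts of the hair follicle epithelium are known as a site of immune privilege, where MHC class I presentation is held low.

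Most markers of the sorted populations followed the labels. All 9 keratinocyte markers tested were lower in dermal papilla than in bulge and in hair germ, and all 11 dermal papilla markers tested were higher there than in both. Cd34, part of the bulge gate, was between 11.60 and 11.77 log2 units in bulge and at most 5.72 in hair germ. Dermal papilla of day 43 had more keratinocyte signal than the later days, with a summed signal of 1176 against 276 and 265. Of the 5 hair germ markers, Tnfrsf19 and Cux1 were higher in hair germ than in bulge, Gli2 did not pass (0.08, limma adjusted p = 0.875), Lgr5 was lower (-1.11, limma adjusted p = 0.0399), and Cdh3 (P-cadherin), part of the gate, was below the filter on low signals. The arrays differed in RNA quality: the ratio of 3' to 5' GAPDH probe signal, which rises as RNA is degraded or amplified from its 3' end, read 8.34 on day 43, 2.97 on day 56 and 7.90 on day 69 for hair germ; dermal papilla read 6.62, 4.13 and 3.77 and bulge 3.96 to 5.09. The 3 arrays of highest ratio, hair germ on days 43 and 69 and dermal papilla on day 43, are left out of the results that rest on them as an alternative below.

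Promoter sequences show what many of these genes share. In the RefSeq windows of the GRCm38.p6 build, from 250 bases before to 50 bases after each start site, the core of the interferon-stimulated response element (GAAANNGAAA, read on both strands) was found in 14 of the 25 listed genes with a window (56.0%), against 3.99% of 27025 genes. The 9-letter form of the gamma-activated sequence (TTCNNNGAA, which reads the same on both strands) was found in 8 of the 25 (32.0%), against 9.55% of all genes. The 200 bases before the start site are shown for 5 genes with the response element core, in capitals, taken from the antiviral effectors and the GTPases, and for Tap1, which has none in its window. All run 5′ to 3′ on the strand of the gene. In Ifit1, Rsad2 and Gbp2 the core appears as its reverse complement, and in Ifit1 and Irgm1 it occurs 2 times.
Ifit1: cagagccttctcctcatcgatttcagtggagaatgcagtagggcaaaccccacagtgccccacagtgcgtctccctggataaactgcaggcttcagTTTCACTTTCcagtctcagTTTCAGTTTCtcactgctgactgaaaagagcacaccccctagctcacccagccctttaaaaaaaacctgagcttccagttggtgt
Rsad2: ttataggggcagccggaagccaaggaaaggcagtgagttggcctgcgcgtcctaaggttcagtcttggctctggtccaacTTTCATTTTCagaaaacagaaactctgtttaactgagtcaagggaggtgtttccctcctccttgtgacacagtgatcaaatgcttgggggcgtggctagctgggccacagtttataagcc
Gbp2: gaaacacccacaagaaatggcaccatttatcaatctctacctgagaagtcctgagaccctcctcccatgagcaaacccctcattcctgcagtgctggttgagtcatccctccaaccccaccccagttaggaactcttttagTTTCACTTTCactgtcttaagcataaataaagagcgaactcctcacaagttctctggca
Igtp: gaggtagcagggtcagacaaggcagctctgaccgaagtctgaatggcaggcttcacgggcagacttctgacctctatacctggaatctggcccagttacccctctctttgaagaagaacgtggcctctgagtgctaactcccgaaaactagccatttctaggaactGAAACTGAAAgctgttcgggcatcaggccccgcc
Irgm1: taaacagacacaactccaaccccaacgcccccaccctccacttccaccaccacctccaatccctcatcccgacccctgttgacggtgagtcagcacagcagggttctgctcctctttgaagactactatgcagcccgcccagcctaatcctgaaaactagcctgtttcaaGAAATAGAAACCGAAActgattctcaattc
Tap1: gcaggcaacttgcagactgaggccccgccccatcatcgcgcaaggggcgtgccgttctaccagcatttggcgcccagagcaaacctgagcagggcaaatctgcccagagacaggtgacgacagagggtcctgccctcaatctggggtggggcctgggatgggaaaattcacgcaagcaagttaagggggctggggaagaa
These stretches lie at chr19:34640689-34640888 (+ strand), chr12:26456453-26456652 (- strand), chr3:142620463-142620662 (+ strand), chr11:58199356-58199555 (+ strand), chr11:48871421-48871620 (- strand) and chr17:34187356-34187555 (+ strand). The match began at position -120 from the start site in Rsad2, at -59 in Gbp2 and at -34 in Igtp. Tap1 and Psmb9 are neighbours transcribed in opposite directions, and their windows share 275 of 300 bases. A match is a string of letters and was not tested for binding.

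In hair germ the interferon response genes were high on day 43, low on day 56 and intermediate on day 69, while most of them differed less between days in bulge and dermal papilla. All 19 tested genes were lower in hair germ on day 56 than on day 43, by a median of -2.27 on the log2(signal + 16) scale (from -4.82 to -0.12). The median of all 7796 genes was 0.10. At least 2-fold lower were 14 of the 19, against 2.86% of all genes. On day 69, 8 of the 19 were at least 2-fold above day 56 (5.82% of all genes), and the median difference was 0.91. Relative to day 43, 9 of the 19 were at least 2-fold lower on day 69 (4.67% of all genes). The order day 43, then day 69, then day 56 held for 16 of 19, against 11.4% of all genes. Each of these differences compares 1 array with 1 array, so they have no replicate check and no test. In bulk RNA, fewer cells carrying a transcript and less of it per cell cannot be told apart.

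**Figure D1:**
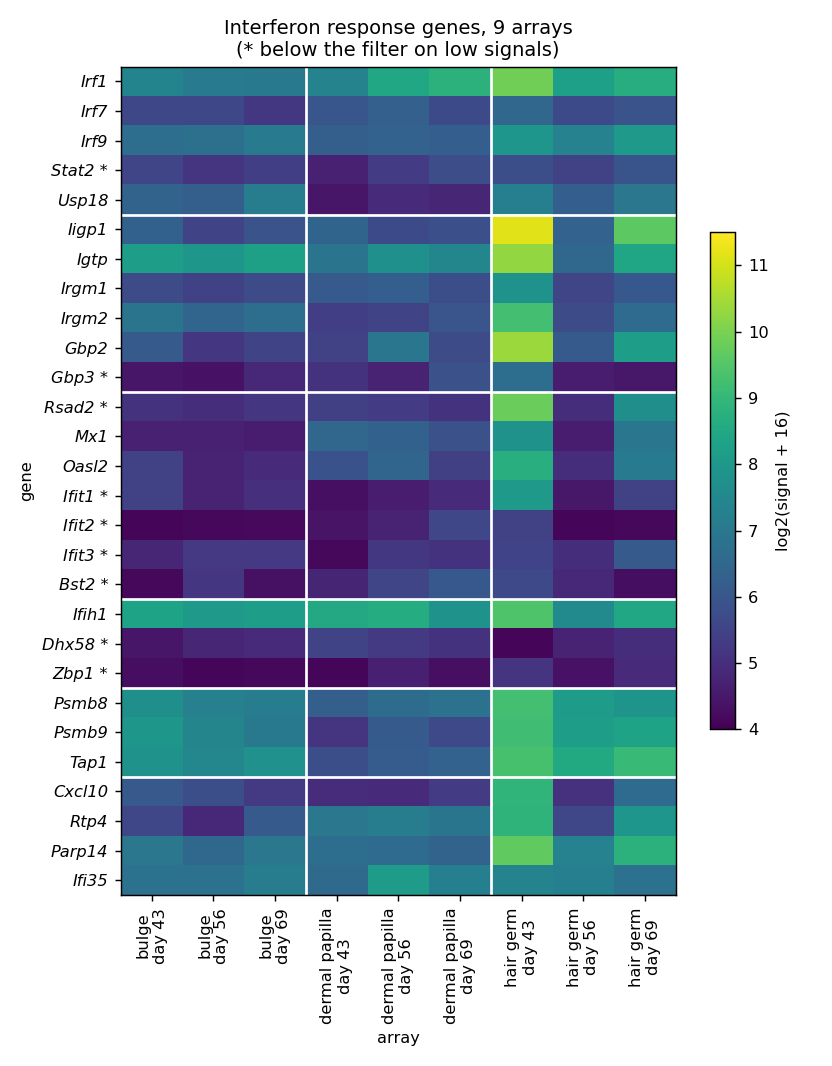
Levels of the 28 interferon response genes with a probe set of their own, as log2(signal + 16), with 1 column per array and white lines between populations and between functional groups. The bright cells lie in the hair germ columns of days 43 and 69, and the day 56 hair germ column is close to bulge and dermal papilla for most genes.

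The immunity-related GTPases and guanylate-binding proteins assemble on the vacuoles of intracellular parasites and bacteria. Iigp1 and Gbp2 of these families spanned the widest ranges among the tested members, but not all of their relatives did. Iigp1 measured 11.16, 6.34 and 9.60 log2 units in hair germ (days 43, 56 and 69 in this order throughout), against 6.33, 5.53 and 5.91 in bulge and 6.43, 5.70 and 5.84 in dermal papilla. Its day 56 hair germ level, 28.2-fold below day 43, thus lay inside the range of the other populations. Gbp2 was at 10.39, 6.13 and 8.19 in hair germ, at 6.14, 5.19 and 5.54 in bulge and at 5.45, 6.95 and 5.74 in dermal papilla. It was 19.1-fold lower in hair germ on day 56 than on day 43, and its highest dermal papilla array was that of day 56, the lowest day in both epithelial populations. Igtp, also called Irgm3, was at 10.28, 6.50 and 8.43 in hair germ, at 8.21, 7.96 and 8.27 in bulge and at 6.89, 7.78 and 7.44 in dermal papilla. The day 56 hair germ array was here the lowest of all 9, 13.7-fold below day 43. Irgm1 and Irgm2, of the same family, ranged from 5.46 to 7.83 and from 5.38 to 9.27 over the 9 arrays. Both were highest in hair germ on day 43.

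Among the antiviral effectors, the 2 tested genes, Mx1 and Oasl2, had the same order of days in hair germ. Mx1, a dynamin-like GTPase that blocks viral replication, was at 7.81, 4.60 and 6.95 in hair germ, at 4.68, 4.70 and 4.56 in bulge and at 6.47, 6.34 and 5.87 in dermal papilla. On day 56 hair germ was at the bulge level, while dermal papilla lay above bulge on every day. Oasl2, of the oligoadenylate synthetase family, was at 8.69, 4.99 and 7.10 in hair germ, at 5.47, 4.73 and 4.91 in bulge and at 5.88, 6.43 and 5.42 in dermal papilla. It was 13-fold lower in hair germ on day 56 than on day 43. Rsad2 (viperin) and Ifit1, which binds foreign RNA, were below the filter and were chosen for mention after their values were seen, since their promoters are shown above. Rsad2 was at 9.79, 4.98 and 7.74 in hair germ and between 4.99 and 5.41 in the other 6 arrays, with above-median signal in only 2 arrays. Ifit1 was at 8.01, 4.47 and 5.47 in hair germ and between 4.32 and 5.46 elsewhere. The other 7 genes below the filter were between 4.10 and 6.70 in every array. Not all of them had the order of days seen above: in hair germ Ifit3 was highest on day 69 (5.52, 4.97 and 6.12) and Bst2 lowest on day 69 (5.67, 4.84 and 4.29). Dhx58, a sensor of foreign RNA, was lowest on day 43 on its brightest probe set, at 4.10, 4.74 and 4.99 in hair germ, while another of its probe sets read 5.90, 4.25 and 5.89.

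Cxcl10, the chemokine that draws activated T cells, was at 8.89, 5.07 and 6.61 in hair germ, at 6.09, 5.80 and 5.28 in bulge and at 4.94, 4.90 and 5.32 in dermal papilla. The 14.2-fold lower day 56 level lay below every bulge array. Rtp4, a receptor chaperone induced by interferon, was at 8.89, 5.61 and 7.93 in hair germ, at 5.61, 4.83 and 6.14 in bulge and at 6.97, 7.14 and 6.90 in dermal papilla. Dermal papilla was thus above bulge on all 3 days, and above hair germ on day 56. Parp14, an ADP-ribosyltransferase, was at 9.68, 7.32 and 8.82 in hair germ, at 6.96, 6.50 and 6.97 in bulge and at 6.71, 6.63 and 6.39 in dermal papilla. All 3 hair germ arrays were above all arrays of the other populations, and the share of all genes lying so was not counted. Ifih1 (MDA5), a sensor of long foreign RNA, ranged from 7.58 in hair germ on day 56 to 9.44 in hair germ on day 43. Ifi35 differed least between days 43 and 56 in hair germ (7.36, 7.24 and 6.80) and was highest in dermal papilla on day 56 (8.11).

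The transcription factors and the signalling brake had smaller differences between days. Irf1, a transcription factor induced early by interferon, was at 9.87, 8.25 and 8.66 in hair germ, at 7.39, 7.05 and 7.04 in bulge and at 7.35, 8.47 and 8.83 in dermal papilla. All hair germ arrays were above all bulge arrays, and dermal papilla reached the hair germ range on days 56 and 69. Irf9, a DNA-binding factor of the type I response, was at 7.94, 7.31 and 8.06 in hair germ, at 6.72, 6.76 and 7.07 in bulge and at 6.28, 6.36 and 6.24 in dermal papilla. It was the only tested member that was no lower in hair germ on day 69 than on day 43, and its 3 populations did not overlap. Usp18, which removes Isg15 from proteins and dampens type I receptor signalling, was at 7.24, 6.24 and 6.96 in hair germ, at 6.39, 6.27 and 7.17 in bulge and at 4.45, 4.91 and 4.80 in dermal papilla. Hair germ and bulge overlapped, and every dermal papilla array lay below both. Irf7, the factor that amplifies type I interferon production, was between 5.22 and 6.48 in every array.

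The antigen presentation genes kept the populations apart on every day. Tap1, a subunit of the transporter that brings peptides to MHC class I, was at 9.32, 8.56 and 9.07 in hair germ, at 7.84, 7.47 and 7.79 in bulge and at 5.79, 6.20 and 6.37 in dermal papilla. Psmb9, an immunoproteasome subunit whose gene shares its promoter region with Tap1, was at 9.19, 8.17 and 8.35 in hair germ, at 7.96, 7.41 and 7.02 in bulge and at 5.15, 6.12 and 5.65 in dermal papilla. Psmb8, another immunoproteasome subunit, was at 9.25, 8.12 and 7.89 in hair germ, at 7.73, 7.27 and 7.15 in bulge and at 6.27, 6.64 and 6.84 in dermal papilla. For each of the 3 genes every hair germ array was above every bulge array, and every bulge array above every dermal papilla array. How many of all genes had populations lying apart in such ways, as for these 3, Irf9, Irf1 and Usp18, was not counted. Related genes outside the set were mixed. H2-K1, H2-D1, B2m and Psme1 had the same order without overlap, and the rest of the 11 further MHC class I genes did not. Tap2, for example, was at 6.27, 7.43 and 7.25 in dermal papilla and at 7.17, 6.97 and 7.10 in bulge. By limma, 3 of the 11 were higher in dermal papilla than in bulge (Calr, Canx and Pdia3) and 2 lower (H2-K1 and H2-D1). The shares of all genes were 16.1% and 19%. In hair germ the day 56 level was 1.69-fold below day 43 for Tap1, 2.03-fold for Psmb9 and 2.18-fold for Psmb8.

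Outside hair germ fewer genes differed between days. In bulge, 0 of the 19 were 2-fold lower on day 56 than on day 43 (0.359% of all genes) and 0 were 2-fold higher (0.205%), with a median difference of -0.34. In dermal papilla 3 were 2-fold higher (4.59%), namely Gbp2, Ifi35 and Irf1, and 0 were 2-fold lower (2.58%), with a median of 0.31. The SD over the 3 days, taken per gene, had a median of 1.19 among the 19 genes in hair germ, against 0.36 over all genes. In bulge the median SD was 0.23 (all genes 0.18) and in dermal papilla 0.31 (all genes 0.29). Averaged over the populations, 0 of the 19 genes passed limma's test between any pair of days, as did 0% of all genes for each of the 3 contrasts. The smallest limma adjusted p among the 19 genes between days 56 and 43 was 0.845, between days 69 and 43 it was 0.758 and between days 69 and 56 it was 0.709. At an unadjusted limma p under 0.05 there were 4 of the 19 between days 56 and 43, and 0 for the other pairs, beside 398, 565 and 551 of all genes.

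**Figure D2:**
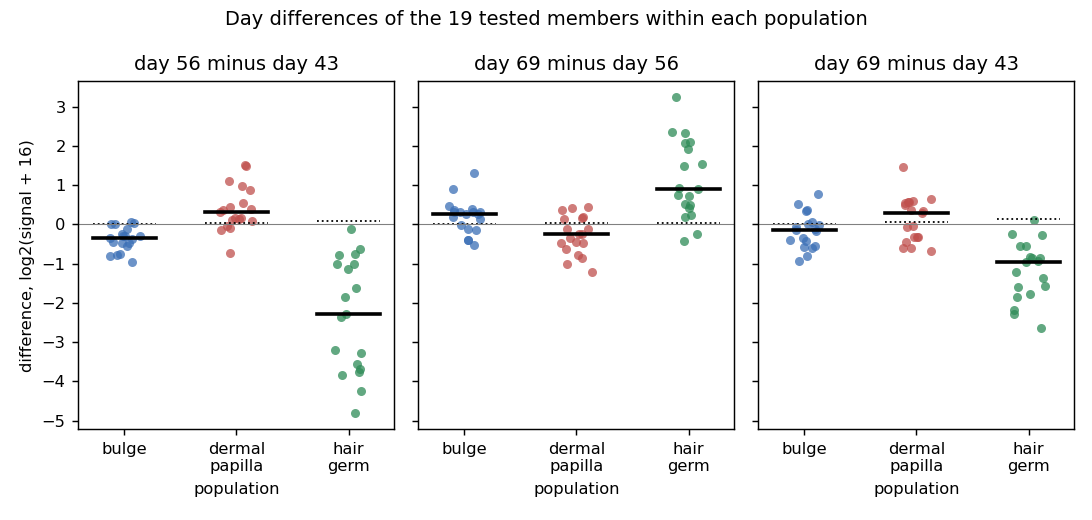
Differences between days within each population for the 19 tested genes, on the log2(signal + 16) scale, 1 point per gene from 1 array against 1 array. Solid bars are the medians of the 19 genes and dotted lines the medians of all 7796 genes. The hair germ points lie farthest from 0, all 19 below it for day 56 minus day 43.

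Among the 14 tested members with a window, those with the response element core had the larger median difference between days 43 and 56 in hair germ. Iigp1, Mx1, Rtp4, Parp14 and Usp18 had no window, and Iigp1 had the largest difference of all tested members (-4.82). The 6 tested genes with a match (Cxcl10, Irgm1, Irgm2, Igtp, Ifih1 and Gbp2) had a median day 56 minus day 43 difference of -3.66 (from -4.26 to -1.86), and the 8 with a window and no match had -0.90 (from -3.70 to -0.12). Oasl2 was the exception among the 8, since it has no match and lay at -3.70. The 8 also include Tap1 and Psmb9, whose windows share 275 of 300 bases. Across all tested genes the median was 0.11 for 231 genes with the core and 0.10 for 6128 without. For the gamma-activated sequence the medians were -1.62 for 5 genes with it and -1.86 for 9 without. These are descriptions of few genes in a pair of arrays, with no test.

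**Figure D3:**
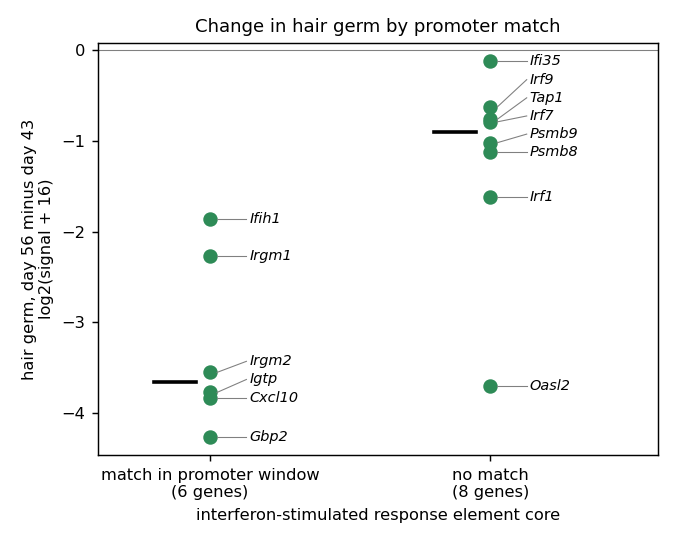
Hair germ difference between day 56 and day 43, on the log2(signal + 16) scale, for the 14 tested genes with a promoter window, split by a match to the response element core. Each point is 1 gene and the bars are medians, -3.66 with a match and -0.90 without.

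Over the 3 days, hair germ was higher than bulge in 10 of the 19 genes and lower in 0 by limma at an adjusted p below 0.05, while 12.2% of all genes were higher and 7.56% lower. The model had population and day as additive terms, so the days served as replicates and differences between days that only 1 population shows entered the error. The largest differences were those of Iigp1 (3.11 ± 0.64, SE, limma adjusted p = 0.00692) and Gbp2 (2.61 ± 0.76, limma adjusted p = 0.0345). Tap1 had a smaller difference with a smaller error (1.29 ± 0.25, limma adjusted p = 0.00481). The other 7 were Rtp4 (1.95), Mx1 (1.81), Parp14 (1.80), Irf1 (1.77), Psmb9 (1.11), Psmb8 (1.04) and Irf9 (0.92), with limma adjusted p from 0.00763 to 0.0455. Oasl2 (1.89 ± 0.61, limma adjusted p = 0.0531) and Igtp (0.26 ± 0.64, limma adjusted p = 0.819) did not pass, although their hair germ level on day 43 was far above bulge. The 19 genes had a median difference of 1.11, against 0.11 over all genes tested, and scaling the arrays to each other moved the latter by -0.15 (quantile normalization) or -0.21 (median centring). Of all genes called, 61.8% were higher in hair germ, 46.6% after quantile normalization and 39.4% after median centring. Of the 19 genes 5 and 6 were then called higher.

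The difference from bulge depended on the day. On day 43 all 19 genes were higher in hair germ than in bulge, 16 of them at least 2-fold (9.83% of all genes), with a median of 2.08. On day 56 Irf1 and Tap1 reached 2-fold (2 of 19, beside 10.2% of all genes), and the median was 0.40. On day 69, 10 of 19 reached it (13.8% of all genes), with a median of 1.29. Hair germ was the highest of the 3 populations for 19 of 19 genes on day 43, for 6 on day 56 and for 15 on day 69. Over all 7796 genes it was highest for 2894, 3024 and 3279 on these days, so 6 of 19 was no more than the general share. The count of 10 in the model was lower without any 1 of 5 arrays: it was 2, 4 and 3 without bulge of day 43, 56 and 69, 3 without hair germ of day 43 and 5 without hair germ of day 69. Without the 3 arrays of highest GAPDH ratio, which leaves hair germ with its day 56 array alone, assumed to vary like the others, 0 of the 19 passed.

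**Figure D4:**
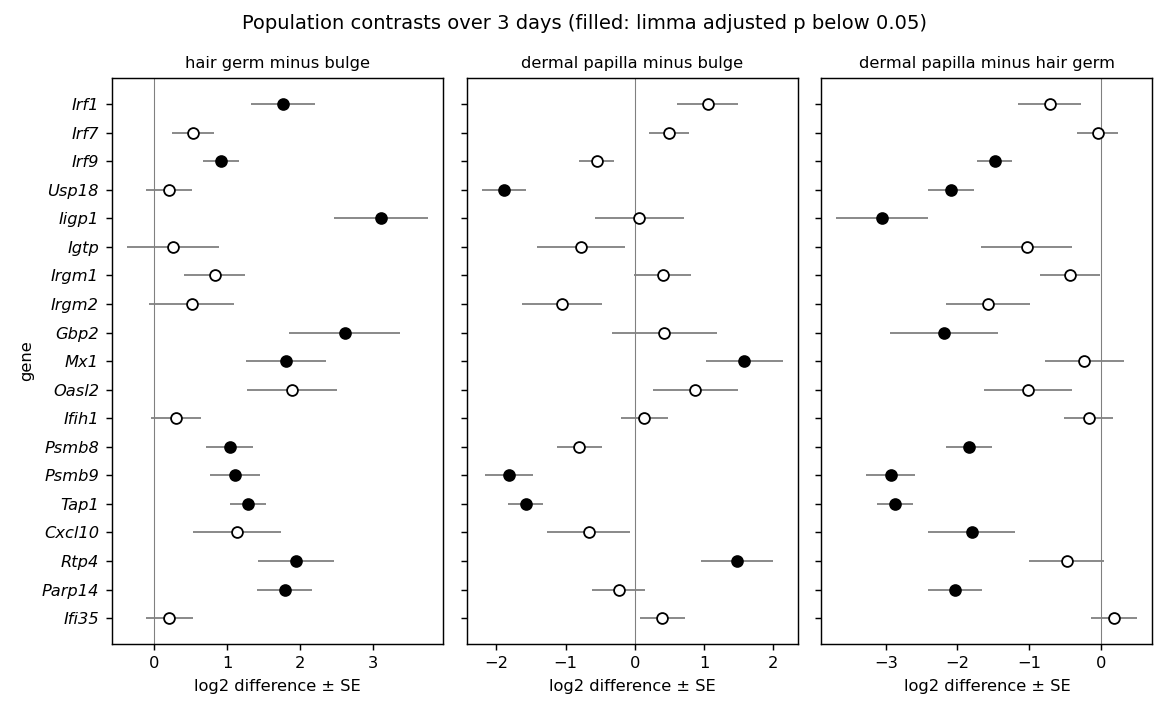
Differences between populations over the 3 days with their standard errors, in log2 units, for the 19 tested genes, filled where limma's adjusted p was below 0.05. In the left panel 10 points are filled to the right of 0, in the middle panel 2 to the right and 3 to the left, and in the right panel 9 to the left.

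Dermal papilla was lower than hair germ in 9 of the 19 genes and higher in 0, while 23.8% of all genes were lower and 15.5% higher. Of all genes called here, 39.4% were higher in dermal papilla, 50.3% after quantile normalization and 49.5% after median centring, and 7 of the 19 were called lower under either. The median difference of the 19 genes was -1.48, against -0.15 over all genes, and -0.53 without hair germ of day 43. This contrast shares its hair germ arrays with the one above and is no independent repeat of it. The antigen presentation genes were all among the 9: Tap1 differed by -2.87 ± 0.25 (limma adjusted p = 5.77e-06), Psmb9 by -2.93 ± 0.35 (limma adjusted p = 5.26e-05) and Psmb8 by -1.84 ± 0.32 (limma adjusted p = 0.00095). Usp18 differed by -2.10 ± 0.32 (limma adjusted p = 0.000377). The other 5 were Iigp1 (-3.05), Gbp2 (-2.19), Parp14 (-2.03), Cxcl10 (-1.80) and Irf9 (-1.48), with limma adjusted p from 0.000663 to 0.0406. Tap1, Psmb9, Psmb8 and Usp18 passed under all 18 alternatives tried. Without the 3 arrays of highest GAPDH ratio these 4 were the calls left, and without hair germ of day 56 the count was 14.

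Against bulge, dermal papilla was lower in 3 of the 19 genes and higher in 2, while 19% of all genes were lower and 16.1% higher. The median of the 19 genes was 0.07, against -0.05 over all genes, and ran from -0.66 to 0.31 when single arrays were left out. Usp18 was lower by -1.89 ± 0.32 (limma adjusted p = 0.000779), Psmb9 by -1.82 ± 0.35 (limma adjusted p = 0.00164) and Tap1 by -1.58 ± 0.25 (limma adjusted p = 0.000491), and these 3 passed under all 18 alternatives. Without hair germ of day 43 there were 5 lower genes. Mx1 (1.58 ± 0.55, limma adjusted p = 0.0461) and Rtp4 (1.48 ± 0.52, limma adjusted p = 0.048) were higher, and both lost that call when signals were quantile normalized or centred on the median. The count of 2 was 0 without bulge of day 43 or day 69 or dermal papilla of day 56, and 1 without bulge of day 56 or dermal papilla of day 69. The 7 genes that passed in no population contrast were Irf7, Oasl2, Irgm1, Irgm2, Igtp, Ifih1 and Ifi35.

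The interferon response genes were prominent among the genes with the lowest hair germ level on day 56 relative to day 43. Of the first 10 tested genes in that order 6 were members. Of the first 20 there were 8 members and 5 other interferon-stimulated genes, and of the first 40 there were 11 and 7. Members and lists were chosen with earlier results of these data known, so these counts are a description and no independent support. The separate list of other interferon-stimulated genes had 26 tested of 60 listed. In hair germ 0 were 2-fold higher on day 56 than on day 43, and the median was -0.89. At least 2-fold lower were 11 of the 26, beside 2.86% of all genes. The largest were Ifi27l2a, at 9.08, 5.56 and 8.24 in hair germ, and Cxcl9, a sister chemokine of Cxcl10, at 8.99, 5.54 and 6.97. Ifi47 and Gbp6, GTPases of the same families as Iigp1 and Gbp2, were 7.38-fold and 7.18-fold lower. Over the days 6 of the 26 passed as higher in hair germ than in bulge and 3 as lower, beside 12.2% and 7.56% of all genes, with Casp4, an inflammatory caspase, the largest (3.77, limma adjusted p = 3.54e-05). Ifitm1 was higher in dermal papilla than in bulge by 5.29 (limma adjusted p = 1.94e-06).

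The pathway upstream of these genes showed other patterns. Of 17 listed genes of ligands, receptors and signalling 10 were tested, with a median day 56 minus day 43 difference of -0.11 in hair germ. At least 2-fold lower on day 56 were 0 of these 10, beside 2.86% of all genes. Of the listed ligands only Ifnb1 (type I) and Ifng (type II) had a probe set of their own, and both were below the filter. Genes of interferon alpha were not on the list, so the ligands were not surveyed in full. Ifngr1, a subunit of the interferon gamma receptor, was higher in hair germ than in bulge (1.26, limma adjusted p = 0.00609), as was the feedback inhibitor Socs3 (1.26, limma adjusted p = 0.0116). Ifnar2, a subunit of the type I receptor, was instead higher in dermal papilla than in bulge (2.06, limma adjusted p = 7.8e-05). Among nucleic acid sensors and their adaptors 8 of 15 were tested. By limma 3 were higher in hair germ than in bulge, beside 12.2% of all genes. The largest difference was that of the kinase Ikbke (2.87, limma adjusted p = 0.000117), with hair germ levels of 8.14, 7.85 and 7.36 on the 3 days. Of 11 further MHC class I genes 2, Tapbp and Erap1, were 2-fold lower in hair germ on day 56 than on day 43 (2.86% of all genes). Over the days 6 were higher in hair germ than in bulge (12.2% of all genes), B2m among them (0.99, limma adjusted p = 0.0129).

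Markers of other cells and RNA quality are given beside these results. The summed signal of the 28 genes with a probe set of their own over days 43, 56 and 69 was 13286, 2315 and 5131 for hair germ and between 1535 and 2273 in the other arrays. The summed signal of the 28 leukocyte markers was 2229, 1613 and 2053 in hair germ, thus also highest on day 43, between 1232 and 1554 in bulge and between 626 and 1018 in dermal papilla. Ptprc (CD45), the defining leukocyte marker, had its lowest hair germ level on day 43, at 5.40, 5.90 and 6.23 on the 3 days, and differed by -1.33 between hair germ and bulge (limma adjusted p = 0.00982). Thy1 (9.86, 7.58 and 7.36) and H2-Eb1 (8.742, 7.999 and 8.016) were instead highest in hair germ on day 43. Thy1 was the brightest of the listed markers on that array and so weighed most in its sum. It was also at 8.33, 8.51 and 7.29 in dermal papilla, a population sorted without CD45 positive cells. Of the 10 leukocyte markers tested, 5 were lower and 5 higher in hair germ on day 56 than on day 43. Over the days 4 were higher in hair germ than in bulge (Thy1, Cd74, H2-Aa and H2-Eb1) and 2 lower (Ptprc and Cd3g). The shares of all genes were 12.2% and 7.56%. None of the 6 endothelial markers passed the filter, with summed signals between 47 and 149. Of 4 plasmacytoid dendritic cell markers 3 were on the array, with a summed signal of 603, 1148 and 996 in hair germ. The 2 tested, Irf8 and Tcf4, were not higher on the hair germ array of day 43 (4.13 and 9.25) than on that of day 56 (5.33 and 10.14). Both were highest in dermal papilla, Irf8 at 9.54, 9.47 and 10.18 and Tcf4 at 12.09, 11.43 and 11.34, where the summed signal was 5067, 3429 and 3730. They are thus not particular to these dendritic cells here, and the part of such cells was not tested. The GAPDH ratio moved with the hair germ levels of these genes, high on days 43 and 69 and low on day 56. Dermal papilla had ratios of 6.62, 4.13 and 3.77 on days 43, 56 and 69. The median level of the 19 genes there was 6.27, 6.36 and 5.97 on these days. The part of leukocytes in the hair germ result was not tested. Nor was the part of RNA quality, since hair germ has a single array at a low ratio.

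**Figure D5:**
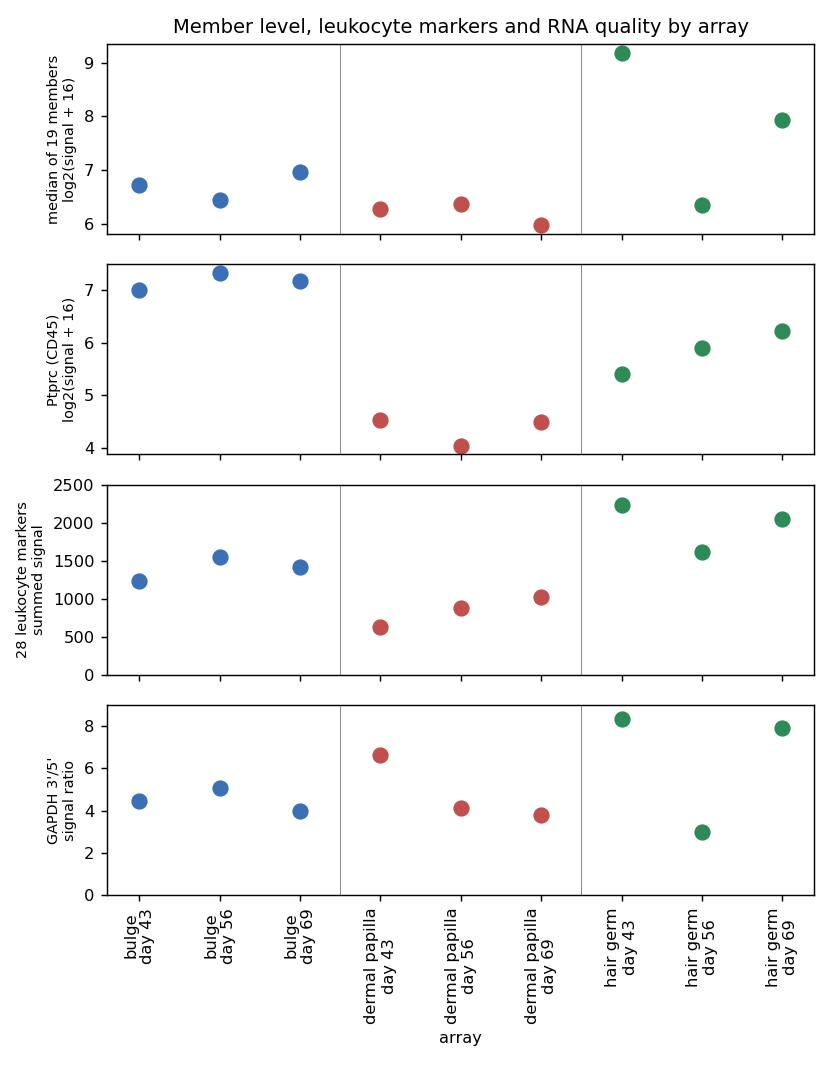
The median level of the 19 tested genes (top, log2 units), the leukocyte marker Ptprc (log2 units), the summed signal of 28 leukocyte markers and the GAPDH 3' to 5' signal ratio (bottom) on each of the 9 arrays. The top panel peaks in hair germ on days 43 and 69. Among the hair germ arrays Ptprc is lowest and the summed leukocyte signal highest (2229) on day 43, where Thy1 is its brightest gene. The ratio is highest on the hair germ arrays of days 43 and 69.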

How the data were processed

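RNA from 9 sorted cell samples was amplified in 2 rounds and hybridised to oligonucleotide arrays, per the labels' protocols. The authors deposited intensity values, not on a log scale, that came from MAS5 in GCOS per the submitters' processing notes; versions and scaling target are not given in the sources used here. Arrays hold no counts, so their number limits the precision, and p-values measure the spread between these arrays only.

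From 22690 probe sets, 64 control probe sets were set aside. Of the probe sets 20393 pointed to 1 gene, 691 to several and 1542 to none in the platform annotation, and 20364 were matched by gene ID to current symbols. Values were set to log2(signal + 16) and not scaled again between arrays, 12801 probe sets passed the filter, and the brightest stood for its gene. A fold change on this scale understates the change of low genes. Tests used limma 3.58.1 in R 4.3.3 (lmFit and eBayes with trend, 4 residual degrees of freedom) with population and day as additive terms on all 9 arrays, two-sided and adjusted by the Benjamini-Hochberg method over all 7796 genes. Days within a population were compared with no test, as differences of at least 2-fold whose higher array was above its own median. Motif letters were searched in RefSeq promoter windows.

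The members and the gene lists were chosen with earlier results of these data known. Members were named with all 9 values if they passed in a population contrast or if day 56 lay at least 2-fold from both other days in a population, the other tested members by their range, and up to 4 genes per further list, largest first. Alternatives were the pseudocount, scaling between arrays, the filter, probe set averaging, no day term, leaving out each array, and leaving out the 3 arrays of highest GAPDH ratio.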

Additional observations from a re-analysis of the deposited data

Results flagged for a closer look

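The medians of the 19 tested interferon response genes took opposite signs in different populations between the same days, from 1 array against 1 array each, and the difference between populations was not tested. From day 43 to day 56 the median log2 difference was -2.27 in hair germ, -0.34 in bulge and 0.31 in dermal papilla. From day 43 to day 69 it was -0.96 in hair germ, -0.15 in bulge and 0.29 in dermal papilla. From day 56 to day 69 it was 0.91 in hair germ, 0.28 in bulge and -0.23 in dermal papilla. The median of the 19 genes varied among arrays by 0.83 log2 units after population and day (residual SD). Differences between days that a single population shows entered this value. In hair germ the median level was 9.19, 6.34 and 7.93 on days 43, 56 and 69. The value is thus no measure of the spread between arrays in bulge or dermal papilla. Whether their differences between days exceed that spread was not tested, with 1 array per population and day.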

How the results depend on the processing

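The hair germ day pattern kept its direction and size under the other pseudocounts and both scalings between arrays: 13 to 16 of the 19 genes were at least 2-fold lower on day 56 than on day 43, with medians from -2.50 to -1.63. The count of 10 genes higher in hair germ than in bulge was 5 with quantile normalization, 6 with median centring, 6 of 28 with no filter, 0 without the 3 arrays of highest GAPDH ratio, and 2 to 11 when single arrays were left out. The count of 2 higher in dermal papilla than in bulge was 0 with a pseudocount of 64, quantile normalization, median centring, no filter, a filter of 6 arrays (12 genes tested) or no day term, 1 with the mean of all kept probe sets, 3 without the high-ratio arrays, and 0 to 3 when single arrays were left out. The count of 3 lower there ran from 3 to 5 when single arrays were left out and was 3 otherwise. The count of 9 lower in dermal papilla than in hair germ was 4 without the high-ratio arrays and 7 to 14 when single arrays were left out. Without the high-ratio arrays the median of the 19 genes for dermal papilla minus hair germ turned to 0.31, Mx1 in hair germ minus bulge to -0.18, and Cxcl10 and Gbp2 in dermal papilla minus hair germ to 0.069 and 0.433; that setting keeps 1 hair germ array, of day 56. Of the single gene results under alternatives, 321 kept their call, 103 lost it and 3 reversed. The day term matches the arrays of a day across populations; without it the counts were 9 and 0 higher and 3 and 8 lower, in the order above.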

Other observations

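Other genes shared the hair germ array of day 43 with the interferon response, and were picked after their values were seen, from the 40 tested genes with the lowest day 56 level relative to day 43. Krt6b and Krt6a, keratins of the companion layer and of stressed epidermis, were 53.3-fold and 17-fold lower on day 56. Stfa3, a cysteine protease inhibitor (20.6-fold), Chil1, a chitinase-like secreted protein (12.2-fold), Tslp, an epithelial cytokine (7.74-fold), and S100a8, an alarmin (6.63-fold), were lower as well. Genes of chromosome segregation were among them too, with Smc2 4.76-fold, Cdc20 4.66-fold, Kif2c 4.39-fold and Pttg1 4.02-fold lower. Each value compares 1 array with 1 array and has no test.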
